A study of Mus musculus with 6 samples.

Results

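Chaperones fold newly made and damaged proteins, and the unfolded protein response adjusts their supply in the endoplasmic reticulum (ER). The genes described here were chosen by name. They are the mouse genes on the array named Hspa to Hspe, Hsph or Hsp followed by a number, Dnaja, Dnajb or Dnajc, Pdia, or Cct2 to Cct8, with Xbp1, Ern1, Atf4, Atf6, Ddit3, Edem1, Sel1l, Herpud1, Canx and Calr added. The rule matched 160 of the 41174 probes on the array (178 of 43379 spots), which stand for 89 of 28632 genes. Of these 89 genes, 81 passed the filter on signal and were tested among 19197 genes in all. The other 8 were Hspa12a, Dnajb7, Dnajb8, Dnajc5b, Dnajc5g, Hspb8, Pdia2 and Hsp25-ps1. No probe of 7 of these was well above background on 3 arrays, and the bright probe of Dnajc5g lost too many spots to outlier flags.

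The measurements compare transcript levels in resting CD4 T cells from C57BL/6J mouse spleens with and without vasoactive intestinal peptide (VIP), a neuropeptide whose receptors on lymphocytes raise cyclic AMP. Both treatments used cells of the same wild-type strain, from males and females aged 6 to 32 weeks, and every sample pooled 5 to 10 spleens. Cells were captured on anti-CD4 magnetic beads, and the series' design text calls them naive, while neither the VIP dose nor the length of exposure is given in the sources used here. Each of 6 Agilent 2-colour arrays carried a VIP-treated sample and an untreated one of the same replicate number. VIP was in Cy5 on replicates 1, 3 and 5 and in Cy3 on replicates 2, 4 and 6.

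Misfolded proteins in the ER are sensed by the transmembrane proteins IRE1 (gene Ern1), ATF6 and PERK (gene Eif2ak3). IRE1 splices the Xbp1 messenger RNA into the form that encodes an active transcription factor, ATF6 is cut to release another, and PERK phosphorylates the initiation factor eIF2alpha, which slows translation but favours that of Atf4. Together they raise ER chaperones and the machinery of ER-associated degradation (ERAD), while cytosolic heat shock proteins answer mainly to the factor HSF1. In lymphocytes the pathway is best known from plasma cells, whose antibody secretion needs Xbp1.

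Only a few of these genes changed with VIP. Xbp1, Dnajc12 and Dnajc6 rose and Dnajc15 fell, by 1.16- to 1.28-fold, and the other 77 of the 81 tested genes were not called. Calls required an adjusted p under 0.05 from limma (Benjamini-Hochberg, over all 19197 genes). By that rule 3.11% of all genes changed, 1.73% upward and 1.38% downward. The count of 3 higher and 1 lower among 81 genes therefore lies near the background of the whole array. Unadjusted p was under 0.05 for 16 of the 81 genes, against 16.7% of all genes.

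The first bases of the 60-base probes that gave the 4 calls are shown because each of these genes rests on that single probe. They were read from the scanner files, 5′ to 3′, and lie at chr11:5424970-5425029 (plus strand, Xbp1), chr10:62871211-62871270 (plus strand, Dnajc12), chr4:101315033-101315092 (plus strand, Dnajc6) and chr14:78226095-78226154 (minus strand, Dnajc15) in mm9. The first 30 bases of each are printed, with no part in capitals. Exon and UTR positions of the probes were not mapped here.
Xbp1 probe: cctctaagctcttcagaagaggatcaccct
Dnajc12 probe: gaccttccgtatgctctgtatcattgattc
Dnajc6 probe: ttgagatgatagaactatattagctttgtg
Dnajc15 probe: taaaagtccttcagaagaatgtggcacgtg

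The promoters of the classical ER chaperones share a sequence that the pathway's transcription factors bind, and it is shown because the genes that hold it can be set beside Xbp1. The ER stress response element (ERSE, searched on both strands as CCAAT and CCACG with any 9 bases between them) was found in 6 of the 94 RefSeq promoters available for 75 of the 89 genes (6.38%). It was found in 39 of all 32851 promoters of the same length (0.119%), which run from 250 bases before to 50 after the start of transcription. The windows below come from RefSeq, build GRCm38.p6, and read 5′ to 3′ along the gene's strand, with the matching ends of the element in capitals. They lie at chr2:34772010-34772058 (plus), chr10:86705623-86705671 and chr10:86705518-86705566 (both minus, 2 matches in Hsp90b1), chr8:84847060-84847108 (minus), chr11:50325785-50325833 (minus), chr12:17266476-17266524 (plus) and chr14:118937812-118937860 (plus). In Calr and in the second match of Hsp90b1 the element lies on the other strand and so reads CGTGG first.
Hspa5: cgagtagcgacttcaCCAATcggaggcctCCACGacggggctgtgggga
Hsp90b1, first match: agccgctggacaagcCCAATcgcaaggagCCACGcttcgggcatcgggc
Hsp90b1, second match: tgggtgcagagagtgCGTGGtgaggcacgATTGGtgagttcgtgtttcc
Calr: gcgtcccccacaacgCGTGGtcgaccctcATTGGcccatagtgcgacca
Canx: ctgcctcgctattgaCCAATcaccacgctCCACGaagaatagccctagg
Pdia6: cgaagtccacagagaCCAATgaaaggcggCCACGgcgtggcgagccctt
Dnajc3: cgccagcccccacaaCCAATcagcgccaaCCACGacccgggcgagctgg

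The 250 bases upstream of Herpud1 and of Xbp1 are shown because Herpud1, an ERAD gene, lay just short of the threshold and Xbp1 is the regulator that rose. Herpud1 (chr8:94386179-94386428, plus strand) holds the related element ERSE-II (searched as ATTGG and CCACG with any base between them) and, on the other strand, an ATF4 element (searched as TGATGCAA, printed here as TTGCATCA), both in capitals. ERSE-II occurred in 2 of the 94 promoters (2.13%), those of Herpud1 and Dnajb11, against 0.0365% of all promoters, and the ATF4 element in 1 (1.06%) against 0.895%. The Xbp1 window (chr11:5520391-5520640, plus strand) held none of the 6 motifs searched, which says only that these letters are not in it. Those motifs also included the unfolded protein response element (TGACGTGG), in 0.676% of all promoters, and the cyclic AMP response element (TGACGTCA), in 1.79%, and neither was found in a promoter of the group. A match is a description of the letters and not evidence of binding.
Herpud1 upstream: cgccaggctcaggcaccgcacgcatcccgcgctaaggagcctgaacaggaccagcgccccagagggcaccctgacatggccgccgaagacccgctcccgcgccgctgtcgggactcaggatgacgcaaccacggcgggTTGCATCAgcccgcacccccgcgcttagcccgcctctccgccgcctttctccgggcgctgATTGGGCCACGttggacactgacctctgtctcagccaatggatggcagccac
Xbp1 upstream: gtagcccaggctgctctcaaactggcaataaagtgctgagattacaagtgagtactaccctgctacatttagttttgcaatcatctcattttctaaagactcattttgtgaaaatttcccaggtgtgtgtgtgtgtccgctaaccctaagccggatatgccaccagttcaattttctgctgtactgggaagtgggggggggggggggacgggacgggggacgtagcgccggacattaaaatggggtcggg

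The CD4 markers of the labelled cell type were present and did not differ between treatments by the test. Cd4, Cd3d, Cd3e, Cd3g, Cd5, Lck and Cd28 all passed the filter, and 0 of these 7 genes were called by limma, although 2 had an unadjusted p under 0.05. Markers of other cells were measurable too. The summed intensity of the 7 tested B cell markers ran from 8128 to 17727 with VIP and from 9637 to 18645 untreated. That of 7 macrophage and monocyte markers ran from 1207 to 60283 and from 1491 to 60471. A flagged spot was left out of its array's sum, and Lyz2 was measured on only 5 arrays. The macrophage sums therefore do not cover the same genes on every array, and their range is no measure of macrophage content. None of the tested markers of B cells, plasma cells, macrophages and monocytes, dendritic cells, neutrophils, NK cells, CD8 T cells or erythroid cells was called by limma, and outside the plasma cell list 1 macrophage and 1 CD8 T cell marker had an unadjusted p under 0.05. As these are RNA pools of many cells, fewer cells of a type and less RNA per cell cannot be told apart. The sex-linked transcripts stood apart on 2 arrays: Xist was at -6.12 (log2, VIP over untreated) on replicate 3 and at 2.03 on replicate 6, with the Y-linked Ddx3y at 2.04 and -3.96. On the other 4 arrays the size of the log2 ratio of Xist was at most 0.34, and some results are also given over those 4 arrays alone.

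Xbp1, the transcription factor of the IRE1 branch, had the narrowest range over arrays of the 4 called genes. Its normalised log2 intensity ran from 11.09 to 11.85 with VIP (median 11.49) and from 10.72 to 11.51 untreated (median 11.19), so the levels of both treatments overlapped across arrays. Within arrays they did not: the log2 ratio was 0.27, 0.25, 0.37, 0.34, 0.34 and 0.29 on replicates 1 to 6, higher with VIP on 6 of 6. The dye effect on this probe was small, at 0.02. The fitted log2 ratio was 0.31 ± 0.040 (SE, n = 6), a 1.24-fold rise, with a 95% interval from 0.22 to 0.40 (adjusted p = 0.00258 by limma). Within the 3 slides of 2 arrays each it was 0.26, 0.35 and 0.32. Spliced and unspliced Xbp1 were not told apart here, since the position of the probe relative to the exon that IRE1 cuts was not mapped. With the scanner software's own processed signals the log2 ratio was 0.32 but the adjusted p rose to 0.0715 by limma, and with the authors' deposited ratios to 0.0687.

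Plasma cell markers stand beside Xbp1, since plasma cells hold much of it. All 8 markers (Jchain, Sdc1, Tnfrsf17, Mzb1, Prdm1, Irf4, Fkbp11 and Derl3) passed the filter, 0 were called by limma, and 1 of the 8 had a positive log2 ratio (median -0.08, 2 with an unadjusted p under 0.05). Their summed intensity ran from 8516 to 13045 with VIP and from 9711 to 13457 untreated, with Irf4 in the sum on only 5 arrays. Jchain, the joining chain of secreted antibodies, had the lowest fitted log2 ratio of the 8, at -0.18, and Derl3 the highest, at 0.02. On replicates 1 to 6 Jchain was at -0.12, 0.03, -0.27, -0.25, -0.08 and -0.43. Any part of plasma cells in the Xbp1 ratio was not tested.

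Among the members, the sensors Ern1 and Atf6 and the factors Atf4 and Ddit3 were not called. Ern1, which encodes IRE1, had a log2 ratio of 0.02 ± 0.053 (SE, n = 6, adjusted p = 0.882 by limma), with array values from -0.27 to 0.19. Atf6 was at 0.00 ± 0.048 (SE, n = 6) and Ddit3, which encodes the pro-apoptotic factor CHOP, at -0.02 ± 0.048, with intervals from -0.10 to 0.11 and from -0.13 to 0.09. These intervals lie inside 1.2-fold in either direction. A dimmer second probe of Atf6 gave 0.09 ± 0.040 (SE, n = 6, adjusted p = 0.299 by limma over all probes). It was above 0 on 6 of 6 arrays, from 0.04 to 0.17. Atf4, the factor translated when PERK is active, was measured on 5 arrays and ran from -0.06 to 0.48, with a log2 ratio of 0.13 ± 0.073 (SE, n = 5, adjusted p = 0.421 by limma). The high values were on replicates 4 and 6, and the other 3, replicate 2 with the same dye order among them, lay between -0.06 and -0.01. Its interval, from -0.03 to 0.29, reaches past 1.2-fold upward.

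PERK is no member by name, but with 25 further sensors and PERK or ATF4 target genes it completes this arm of the pathway. Eif2ak3, which encodes PERK, rose on 6 of 6 arrays (log2 ratios 0.34, 0.49, 0.39, 0.34, 0.24 and 0.55), with a fitted log2 ratio of 0.39 ± 0.045 (SE, n = 6, 1.31-fold, adjusted p = 0.00143 by limma). The mean of its probes gave 0.27. Psat1, an enzyme of serine synthesis and a known ATF4 target, rose as well, with log2 ratios of 0.32, 0.19, 0.36, 0.44, 0.21 and 0.45 and a fit of 0.33 ± 0.048 (SE, n = 6, adjusted p = 0.00522 by limma). These were 2 genes called upward and 0 downward of 25 tested, against 1.73% and 1.38% of all genes. The list had 17 positive values and a median log2 ratio of 0.03, against a median of 0.00 over all genes. It had 8 genes with an unadjusted p under 0.05 by limma, against 16.7% of all genes. Outside the naming rule, and chosen after their values were seen, Trib3 and Nupr1, both stress genes downstream of ATF4, lay on opposite sides. Trib3 was above 0 on 6 of 6 arrays at 0.19 ± 0.048 (SE, n = 6, adjusted p = 0.0636 by limma) and Nupr1 below 0 on 6 of 6 at -0.20 ± 0.056 (adjusted p = 0.0906 by limma). Without any single replicate, the adjusted p of Eif2ak3 stayed between 0.00282 and 0.0124 and that of Psat1 between 0.00804 and 0.0286 by limma. With the scanner software's processed signals both calls were lost (0.0684 and 0.111).

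**Figure D1:**
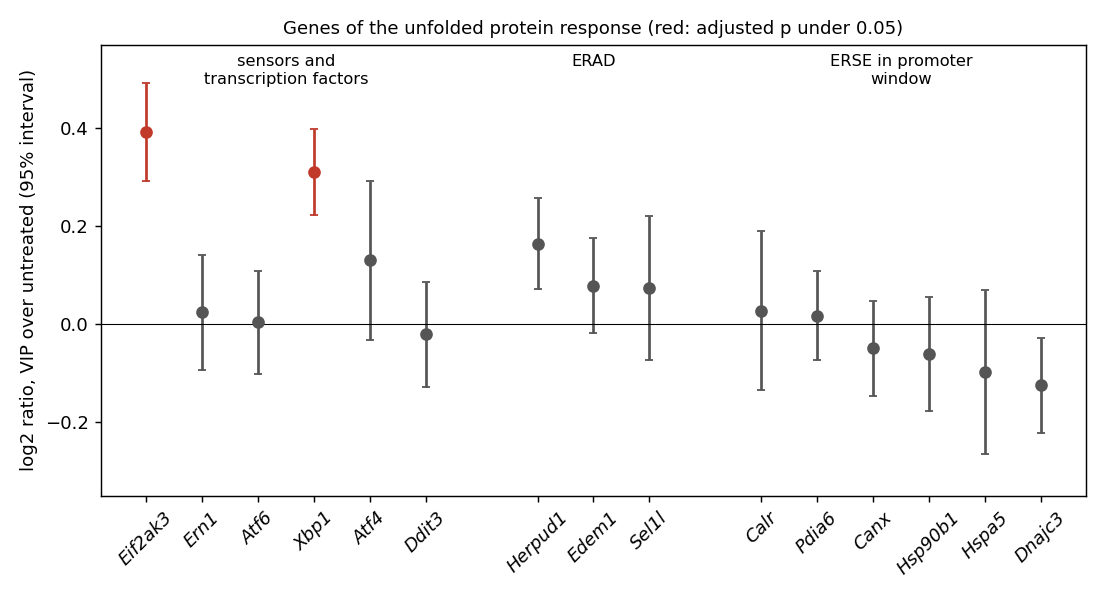
Fitted log2 ratio of VIP over untreated (vertical axis, 95% interval as the bar) for sensors and transcription factors of the unfolded protein response, ERAD genes and genes with an ERSE in the promoter window. Eif2ak3 at 0.39 and Xbp1 at 0.31 are the called genes, drawn in red, while the 6 genes with an ERSE lie between -0.12 and 0.03.

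None of the 3 ERAD members was called by limma, 1 had an unadjusted p under 0.05, and all had positive log2 ratios (median 0.08). Herpud1, an ER membrane protein of the ubiquitin ligase complex, came closest. Its array values depended on the dye: -0.02, -0.03 and -0.15 where VIP carried Cy5 and 0.38, 0.33 and 0.46 where VIP carried Cy3, so 3 of 6 arrays were higher before the dye effect of -0.23 was removed. The fitted log2 ratio was 0.16 ± 0.042 (SE, n = 6, interval 0.07 to 0.26, adjusted p = 0.0639 by limma), and the 3 slides gave 0.18, 0.15 and 0.16. Sel1l, the adaptor of the same complex, was at 0.07 ± 0.066 (SE, n = 6), with array values from -0.45 to 0.61 that also followed the dye. Its other kept probes, neither of them called, gave 0.12 ± 0.056 and 0.13 ± 0.044 (SE, n = 6), and the latter was above 0 on 6 of 6 arrays, from 0.05 to 0.25.

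Edem1, a lectin that draws misfolded glycoproteins into ERAD, gave different answers from its probes. The brightest probe (chr6:108808920-108808979, plus strand, mm9) ran from -0.14 to 0.35 over the arrays and gave 0.08 ± 0.044 (SE, n = 6, adjusted p = 0.42 by limma). A dimmer probe upstream of it (chr6:108804262-108804321, plus strand) read 0.38, 0.25, 0.22, 0.49, 0.27 and 0.44 and gave 0.34 ± 0.047 (SE, n = 6, adjusted p = 0.00364 by limma over 27418 probes, of which 2.90% were called). The mean of both probes was called, at 0.21 (adjusted p = 0.0128 by limma). The last probe of Edem1 had only 2 usable arrays, at 0.48 and 0.52. The first 30 bases of the fitted probes are shown so that these targets can be told apart.
Edem1 brightest probe: tatcctaaagctatcaagtacctgtgaaac
Edem1 upstream probe: acacaaatctggaaccagatacatgtttac

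The ER chaperones themselves, the textbook targets of Xbp1 and ATF6, showed no call in either direction. Hspa5, the ER HSP70 protein BiP, had normalised log2 intensities from 16.17 to 16.36 with VIP and from 16.04 to 16.54 untreated, and ratios of -0.02, -0.31, 0.12, 0.04 and -0.32 on the 5 arrays where it was measured. Its fitted log2 ratio was -0.10 ± 0.075 (SE, n = 5, interval -0.27 to 0.07). Hsp90b1, the ER HSP90 protein, was at -0.06 ± 0.052 (SE, n = 5), and its second probe at 0.08. Without replicate 2 or replicate 4 another probe stood for Hsp90b1 and the sign turned, to 0.07 and 0.09.

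Calr and Canx, the lectin chaperones that hold glycoproteins, were at 0.03 ± 0.073 and -0.05 ± 0.044 (SE, n = 6). The protein disulfide isomerases Pdia6 and Pdia4 were at 0.02 ± 0.041 and -0.05 ± 0.042. Dnajc3, a co-chaperone of BiP that also inhibits PERK, was below 0 on 6 of 6 arrays by its brightest probe, from -0.31 to -0.02. The fit of that probe was -0.12 ± 0.044 (SE, n = 6, adjusted p = 0.176 by limma). Its other kept probes, none of them called, gave -0.10, -0.09 and 0.01 and were above 0 on 1, 2 and 4 of 6 arrays. Of the 6 genes with an ERSE in the promoter window printed above, none was called by limma, only Dnajc3 had an unadjusted p under 0.05, and their log2 ratios ran from -0.12 (Dnajc3) to 0.03 (Calr), with a median of -0.05. Over the 16 tested members of the ER lumen or membrane, 0 were called, 3 had an unadjusted p under 0.05 and the median log2 ratio was 0.02. Of all genes, 3.11% were called and 16.7% had an unadjusted p under 0.05 by limma. Counts over 16 genes lie near those shares.

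A wider list of 49 ER folding and ERAD genes outside the members had 0 calls upward and 1 downward, against 1.73% and 1.38% of all genes. It had a median of 0.02 and 29 positive values. An unadjusted p under 0.05 by limma was found for 5 of its genes, against 16.7% of all genes. Sil1, the nucleotide exchange factor of BiP, fell, with a fit of -0.25 ± 0.048 (SE, n = 5, adjusted p = 0.0217 by limma). Its array values depended on the dye, at -0.53, -0.38 and -0.41 where VIP carried Cy5 and -0.08 and -0.05 where VIP carried Cy3. Its call was lost in 9 of 16 alternatives, among them without replicate 1 (adjusted p = 0.0921 by limma) and without replicate 5 (0.081). It was also lost with slide as a block (0.0596) and with no dye term (0.22). Uggt1, which tags misfolded glycoproteins for another round with calnexin, was chosen after its values were seen. It was at 0.20 ± 0.054 (SE, n = 6, adjusted p = 0.0744 by limma), above 0 on 5 of 6 arrays, and was called with slide as a block (adjusted p = 0.0487 by limma).

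**Figure D2:**
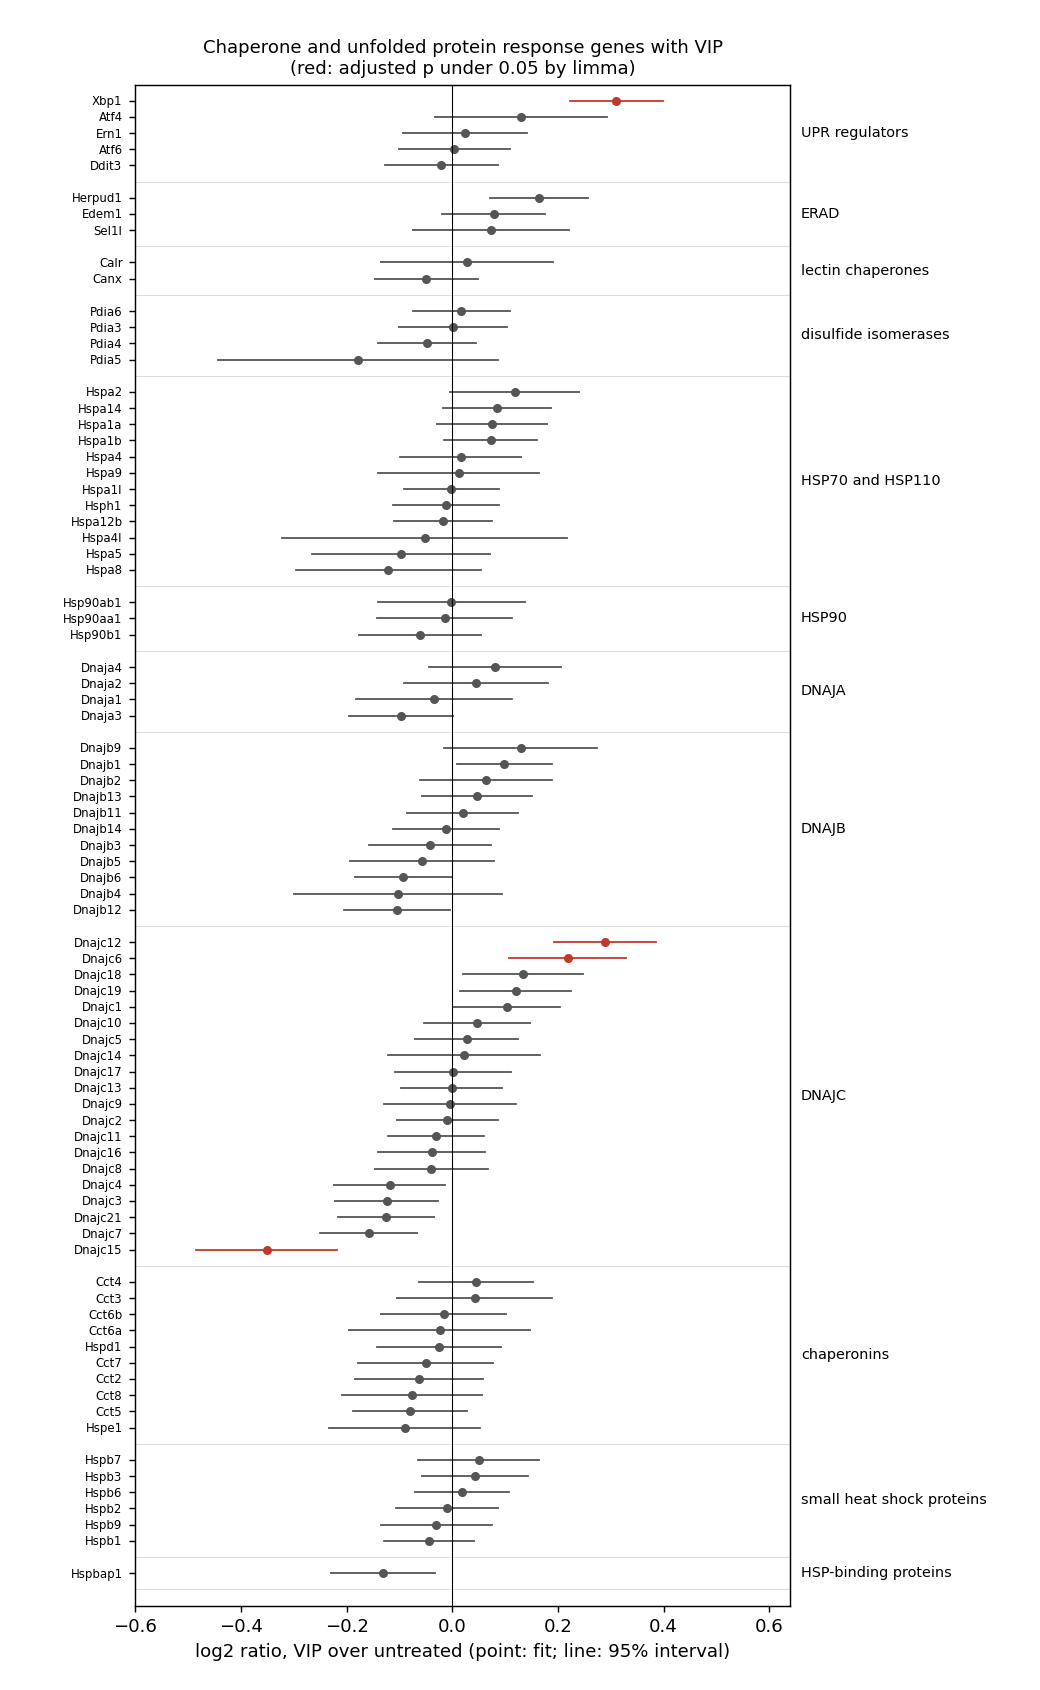
Fitted log2 ratio of VIP over untreated (horizontal axis, line for the 95% interval) for the 81 tested genes, grouped by role. The 4 called genes are drawn in red, and 70 of the 81 intervals lie wholly inside 1.2-fold in either direction, against 88.1% over all genes.

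The group was bounded about as closely as all genes. The 95% interval lay inside 1.2-fold in either direction for 70 of the 81 genes, against 88.1% of all genes tested. The 11 others were the 4 called genes with Atf4, Pdia5, Hspa8, Hspa5, Hspa4l, Dnajb9 and Dnajb4. The median log2 ratio of the 81 genes was 0.00, as over all genes, 37 were positive, and the median size was 0.05 in the group and over all genes. Over the 6 arrays the SD of the members' dye-corrected ratios ran from 0.12 to 0.19, and that of all genes from 0.12 to 0.18.

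The DNAJ proteins, which hand clients to HSP70 and start its ATPase cycle, held 3 of the 4 calls, and all 3 were in the varied DNAJC class. Of its 20 tested members 2 rose and 1 fell, against 3.11% of all genes called in either direction. An unadjusted p under 0.05 was found for 10 of the 20, against 16.7% of all genes by limma. Of the 20, 9 were positive, with a median of 0.00. Dnajc12, a cytosolic co-chaperone best known for the aromatic amino acid hydroxylases, had normalised log2 intensities from 11.58 to 12.18 with VIP and from 11.50 to 12.06 untreated. On replicates 1 to 6 its log2 ratio was 0.42, 0.25, 0.47, 0.03, 0.49 and 0.08. All 6 arrays were higher with VIP, and the 3 with VIP in Cy5 were the highest. The fit, with a dye effect of 0.17, gave 0.29 ± 0.044 (SE, n = 6, 1.22-fold, interval 0.19 to 0.39, adjusted p = 0.00618 by limma), and the slides gave 0.33, 0.25 and 0.29. Without the dye term the ratio was the same but the adjusted p was 0.149 by limma, and an offset of 0 in the background correction gave 0.056.

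Dnajc6, the auxilin that helps HSP70 uncoat clathrin vesicles, rose from a dim signal. Its probe was well above background on all 6 arrays, with normalised log2 intensities from 7.21 to 7.84 with VIP and from 7.12 to 7.64 untreated. The log2 ratios were 0.26, 0.34, 0.38, 0.03, 0.19 and 0.10, higher on 6 of 6 arrays, and the fit gave 0.22 ± 0.050 (SE, n = 6, 1.16-fold, adjusted p = 0.0443 by limma). The call was lost in 13 of 18 alternatives, over which the log2 ratio ran from 0.17 without replicate 2 to 0.37 with the scanner software's processed signals. Among these were the removal of any replicate other than 4 (adjusted p from 0.0846 to 0.12 by limma) and the restriction to the 4 arrays without a sex-linked difference (0.165).

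Dnajc15, a protein of the mitochondrial inner membrane known to restrain the respiratory chain, had the largest change of the group. Normalised log2 intensity ran from 12.85 to 13.41 with VIP (median 13.05) and from 13.20 to 13.89 untreated (median 13.39). The log2 ratio was below 0 on 6 of 6 arrays, at -0.55, -0.24, -0.10, -0.48, -0.41 and -0.33. The fit fell by 0.35 on the log2 scale, with an SE of 0.060 (n = 6, 1.28-fold, interval -0.48 to -0.22, adjusted p = 0.0116 by limma), and the slides gave -0.40, -0.29 and -0.37. Without replicate 5 the log2 ratio was -0.34 with an adjusted p of 0.0585 by limma, and over the 4 arrays without a sex-linked difference it was -0.42 with 0.0125. With no dye term the adjusted p was 0.0522 and with an offset of 0 it was 0.0842 by limma. With the scanner software's processed signals the adjusted p was 0.0922 for Dnajc12, 0.171 for Dnajc6 and 0.134 for Dnajc15 by limma, and with the 12 channels as unpaired samples it was 1.00 for each of the 4 called genes.

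**Figure D3:**
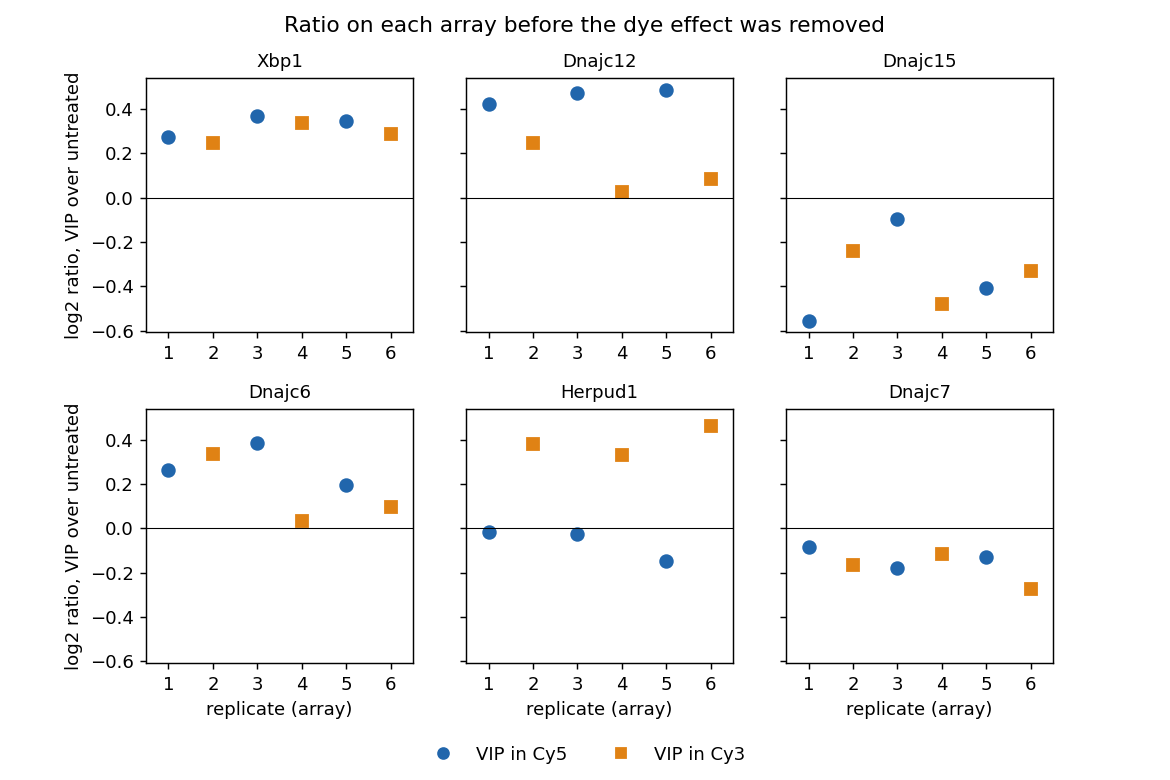
Log2 ratio of VIP over untreated on each of the 6 arrays (horizontal axis, replicate number) before the dye effect was removed, for the 4 called genes and the 2 nearest to the threshold, with the dye that carried VIP shown by colour and shape. Xbp1 lies between 0.25 and 0.37 on every array, while Herpud1 separates by dye.

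Dnajc7, a co-chaperone that binds both HSP70 and HSP90, was also on a single side on every array. It ran from -0.27 to -0.08 and gave -0.16 ± 0.042 (SE, n = 6, interval -0.25 to -0.07, adjusted p = 0.0713 by limma). Together with Dnajc3 and the 4 called genes it made 6 of the 73 members measured on 6 arrays that had 1 sign on all 6 before the dye effect was removed, against 7.05% of all genes so measured. Chosen after their values were seen, Dnajc21 (-0.13 ± 0.041), Dnajc4 (-0.12 ± 0.048), Dnajc18 (0.13 ± 0.051) and Dnajc1 (0.10 ± 0.046; SE, n = 6 each) had an unadjusted p under 0.05 without a call. Dnajc19, of the mitochondrial import motor, stood at 0.12 with its brightest probe but at -0.16 and -0.11 with 2 dim ones.

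The DNAJA and DNAJB classes had no call by limma, against 3.11% of all genes. An unadjusted p under 0.05 by limma was found for 0 of 4 and 3 of 11 tested genes, against 16.7% of all genes. Dnaja3, a mitochondrial DNAJ protein, was at -0.10 ± 0.044 and Dnaja4 at 0.08 ± 0.057 (SE, n = 6). Dnajb1, the partner of cytosolic HSP70, was at 0.10 ± 0.041 (SE, n = 6, adjusted p = 0.252 by limma), with -0.12, -0.12 and -0.09 where VIP carried Cy5 and 0.35, 0.21 and 0.36 where it carried Cy3. Dnajb12, of the ER membrane, was at -0.10 ± 0.046 and Dnajb6 at -0.09 ± 0.042. Dnajb9, a BiP co-chaperone and a known target of spliced Xbp1, was at 0.13 ± 0.066 (SE, n = 6, adjusted p = 0.361 by limma), with 0.34 and 0.36 on replicates 1 and 2, 0.19 on replicate 5 and values from -0.10 to 0.00 on the rest. Its interval, from -0.01 to 0.27, reaches past 1.2-fold upward.

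In the HSP70 and HSP110 families 0 of 12 tested genes were called by limma and 0 had an unadjusted p under 0.05. The shares over all genes were 3.11% and 16.7%. The families had a median of 0.00 and values from -0.12 (Hspa8) to 0.12 (Hspa2). The stress-inducible Hspa1a and Hspa1b were at 0.08 ± 0.047 and 0.07 ± 0.040 (SE, n = 6), and since these genes are near-identical copies their probes may share signal. Hspa14, a ribosome-associated HSP70, was at 0.09 ± 0.046 (SE, n = 5), and the mitochondrial Hspa9, chosen after its value was seen, at 0.01 ± 0.069.

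Hspa8, the constitutive cytosolic HSP70, again differed between probes. The brightest probe (chr9:40612674-40612733, plus strand, mm9) scattered from -0.78 to 0.35 with a dye effect of 0.33 and gave -0.12 ± 0.079 (SE, n = 6, adjusted p = 0.496 by limma). The second (chr9:40611142-40611201, plus strand) read -0.11, -0.05, 0.60, 0.01 and 0.42 on 5 arrays, above 0 on 3 of them. The values of 0.60 and 0.42 were those with VIP in Cy3. With a dye effect of -0.28 the fit gave 0.23 ± 0.051 (SE, n = 5, adjusted p = 0.0423 by limma over all probes). The members' 141 kept probes held 6 calls in that fit, against 2.90% of all 27418 kept probes. They were for Xbp1, Dnajc12, Dnajc6, Dnajc15, Edem1 and Hspa8. Hspa4, an HSP110 protein, gave 0.02, -0.18 and 0.13 with 3 probes, none of them called.
Hspa8 brightest probe: gcaactgtggaagatgagaaacttcaaggc
Hspa8 second probe: ttgaggtcaaatcaacagctggagacaccc

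**Figure D4:**
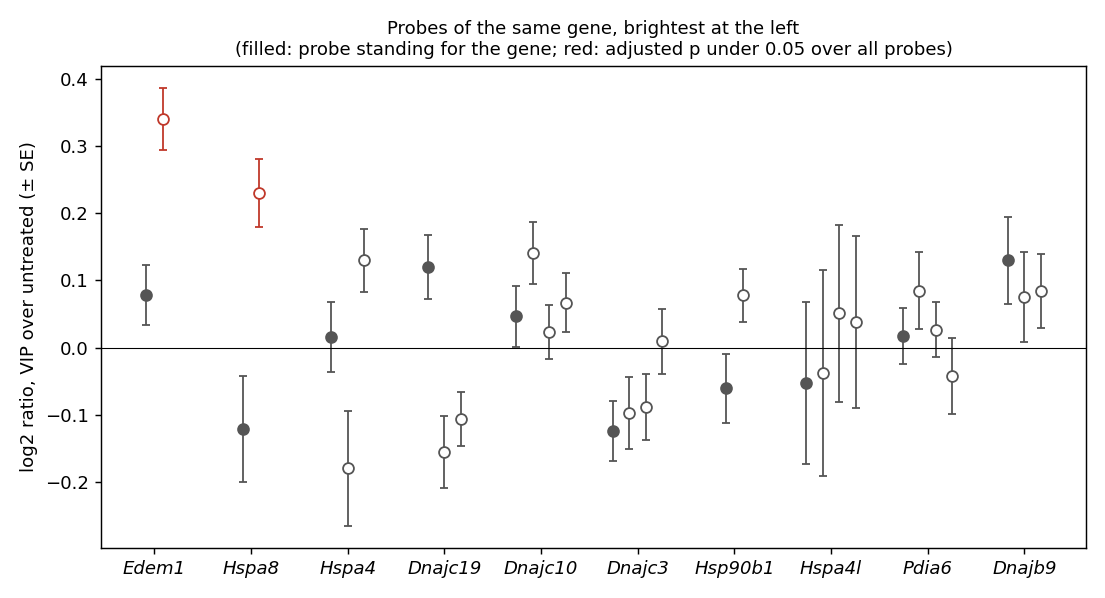
Fitted log2 ratio of VIP over untreated (vertical axis, bars of ± 1 SE) for each kept probe of 10 genes with more than 1 probe, with the brightest probe at the left of each gene and filled. The second probes of Edem1 at 0.34 and Hspa8 at 0.23 are the called ones, drawn in red.

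HSP90, which matures kinases and steroid receptors, had 0 of 3 genes called by limma and 0 with an unadjusted p under 0.05. For this family and the chaperonins below, the shares over all genes were 3.11% and 16.7%. The inducible cytosolic Hsp90aa1 was at -0.01 ± 0.057 (SE, n = 6, interval -0.14 to 0.11) and the constitutive Hsp90ab1 at 0.00 ± 0.063, while the sign of Hsp90aa1 turned in 5 of 18 alternatives and that of Hsp90ab1 in 8. The chaperonins, ring-shaped folding chambers of the cytosol (Cct) and of mitochondria (Hspd1 with its lid Hspe1), had 0 of 10 genes called by limma and 0 with an unadjusted p under 0.05, a median of -0.04 and 2 positive values. Cct5 was at -0.08 ± 0.049, Hspe1 at -0.09 ± 0.065 and Hspd1 at -0.02 ± 0.053 (SE, n = 6 each). All 10 intervals lay inside 1.2-fold.

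The heat shock element (HSE, searched on both strands as GAA, TTC and GAA with any 2 bases between neighbours) was found in 6 promoters of 4 genes, Hspd1, Hspe1, Hsph1 and Dnajb6 (6.38% of 94, against 0.603% of all promoters). Hspd1 and Hspe1 lie head to head and share the same element, which is shown as it reads along Hspe1 (chr1:55088044-55088086, plus strand, GRCm38.p6), with overlapping matches in capitals. None of the 4 genes was called by limma, only Dnajb6 had an unadjusted p under 0.05, and their log2 ratios ran from -0.09 (Dnajb6) to -0.01 (Hsph1). Over 9 cytosolic members known as HSF1 targets, 0 were called, 1 had an unadjusted p under 0.05 and the median was -0.01. Of all genes, 3.11% were called and 16.7% had an unadjusted p under 0.05 by limma.
Hspe1: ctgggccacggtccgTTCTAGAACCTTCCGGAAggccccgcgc

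Small heat shock proteins, which hold unfolding proteins without ATP, had 0 of 6 tested genes called by limma and 0 with an unadjusted p under 0.05, with Hspb1 at -0.04 ± 0.038 and Hspb7 at 0.05 ± 0.052 (SE, n = 6). Both probes were dim, with normalised log2 intensities from 6.49 to 7.61. Hspbap1, a protein that binds a small heat shock protein, was at -0.13 ± 0.045 (SE, n = 6, adjusted p = 0.157 by limma). Among 41 tested co-chaperones and heat shock factors outside the members, 0 were called upward and 1 downward, against 1.73% and 1.38% of all genes. Their median was 0.00, and 4 had an unadjusted p under 0.05 by limma, against 16.7% of all genes. The called gene was Fkbp5, an HSP90 co-chaperone induced by glucocorticoids, below 0 on 6 of 6 arrays (from -0.34 to -0.05) with a fit of -0.18 ± 0.041 (SE, n = 6, adjusted p = 0.0473 by limma). The call was lost in 16 of 18 alternatives, among them without each of the 6 replicates and over the 4 arrays without a sex-linked difference (-0.14, adjusted p = 0.226 by limma), and the mean of its probes was -0.04.

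Hspa4l, Pdia5 and Dnajb4 had the largest standard errors of the group, and replicate 3 was the lowest array for each. Hspa4l, an HSP110 protein, stood at 0.03, 0.25, -1.10, 0.16, 0.03 and 0.32 on replicates 1 to 6, and its 3 other probes read -1.51, -0.93 and -1.23 on replicate 3. Pdia5, a disulfide isomerase, was at -1.09 on replicate 3 and 0.63 on replicate 6, and Dnajb4 at -0.68 and 0.28. These are the arrays on which Xist and the Y-linked genes differed between the channels, and the part of that difference in the result was not tested. The fitted log2 ratios were -0.05 ± 0.122 for Hspa4l, -0.18 ± 0.120 for Pdia5 and -0.10 ± 0.089 for Dnajb4 (SE, n = 6). Without replicate 3 they were 0.20 (adjusted p = 0.109 by limma), -0.04 and 0.00, and over the 4 arrays without a sex-linked difference 0.15, -0.16 and -0.06.

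**Figure D5:**
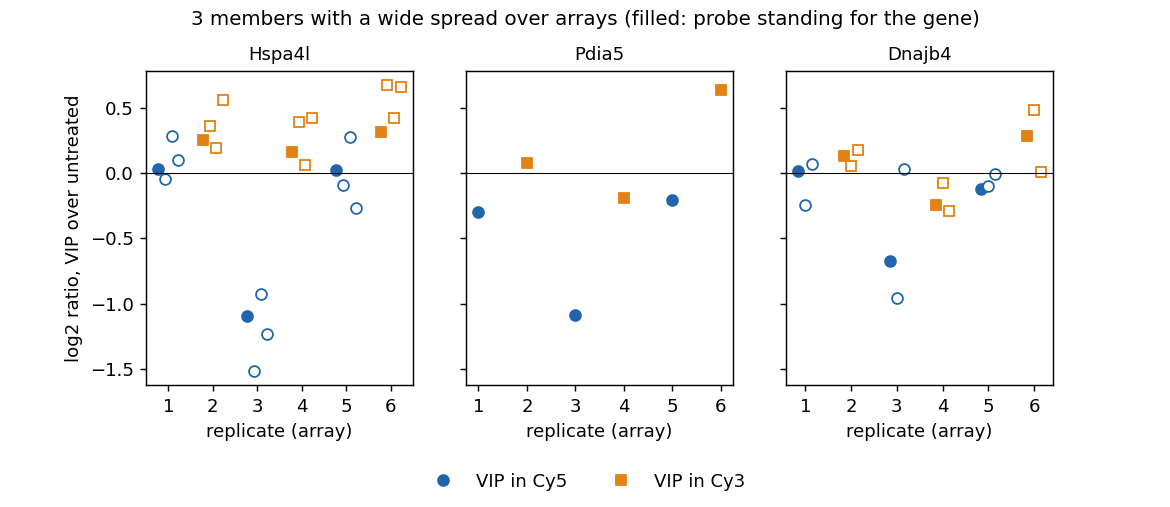
Log2 ratio of VIP over untreated on each of the 6 arrays (horizontal axis, replicate number) for every kept probe of Hspa4l, Pdia5 and Dnajb4, with the probe that stands for the gene filled. All 4 probes of Hspa4l lie between -1.51 and -0.93 on replicate 3 and above -0.30 on the other arrays.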

How the data were processed

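RNA of 12 samples, 6 per treatment, was hybridised to 6 arrays on 3 slides. The deposited files of each array give intensity per spot on a linear scale, written by Agilent Feature Extraction 9.5.1.1 with mm9 coordinates, per the file headers. The authors also deposited a table whose values matched the scanner's log10 ratio, turned to VIP over untreated, within 4.8e-06. Its centring left each array's median at 0, and it served as an alternative. Other columns used, of another kind, were the scanner's probe names, flags and positions, per the file headers.

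Mean signal minus median background was corrected by normexp (offset 50) and normalized by loess within arrays with limma 3.58.1 in R 4.3.3, leaving out control spots and outlier flags (1.93% to 8.96% of spots). Spots of a probe were averaged. Kept probes were well above background on at least 3 of 6 arrays in either treatment and measured on 2 arrays of each dye orientation. The brightest probe stood for a gene, and the scanner's saturation flags were not used as a filter. Names were updated by RefSeq accession, which matched 24844 of 41174 probes.

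The model was the log2 ratio with a treatment and a dye term, empirical Bayes moderation and 2-sided tests adjusted over 19197 genes. The numbers pair the samples by design, since both samples of a number share an array. The model was also fitted to simulated data built from the real genes' fitted dye terms and spread. The simulated noise was independent for each array, so that fit cannot bear on how the calls depend on processing. Genes named were all called members, the 10 genes the rule lists by name, the 2 members of lowest p in each role group, members whose probes disagreed, and called genes of 3 pathway lists. The other genes named were chosen after their values were seen. Members and lists were chosen with earlier results of these data known.

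Median signal ran from 83.6 to 108 in Cy3 and from 148 to 235 in Cy5, with 59.1% to 67.8% and 65.5% to 79.0% of spots well above background. Precision is limited by having 6 arrays. Whether both samples of a number came from the same mice is not stated in the sources used here. On replicates 3 and 6 Xist differed between them (log2 ratios of -6.12 and 2.03), so there the samples differed in their mix of male and female cells. Alternatives covered background correction, signal source, normalization, the dye, slide and pairing terms, filters, probes of a gene, sex-linked transcripts and each replicate.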

Additional observations from a re-analysis of the deposited data

How the results depend on the processing

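Of 57 log2 ratios set against up to 18 alternatives (1016 pairs), 59 lost the call, 2 gained it (Edem1, Uggt1) and 0 called values reversed. The other pairs kept their side of the threshold. Of these, 14 uncalled values of members moved by more than their spread over arrays, and 941 counted as the same. Among the 941, the sign of an uncalled value turned in 38. Signs also turned among the 14, for instance for Hsp90b1. Genes changed by VIP numbered 597, against 133 with offset 0, 38 with the scanner software's processed signals, 41 with the authors' deposited ratios, 313 with median centring, 124 with no dye term, 344 over the 4 arrays without a sex-linked difference, and from 247 to 465 without 1 replicate. Without the replicate block (12 channels unpaired) 4 genes changed, with 0 members higher and 0 lower. Members higher with VIP numbered 1 (Xbp1) with offset 0 and with no dye term, 0 with processed signals and with deposited ratios, from 2 to 3 without 1 replicate, and 5 with each kept probe as a row, an alternative chosen after seeing the data. Members lower with VIP numbered 0 under those first 4 settings and from 0 to 1 without 1 replicate (0 without replicate 5). The log2 ratio of Xbp1 lay between 0.30 and 0.32 in all 18, that of Dnajc12 between 0.26 and 0.31, that of Dnajc15 between -0.42 and -0.30 and that of Dnajc6 between 0.17 and 0.37. The cause of the differing counts was not tested.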
